A study of Mus musculus with 20 samples.

Results

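The genes described here were *Sh2d1a*, which encodes the adaptor SAP, and 4 receptor genes of the signaling lymphocytic activation molecule (SLAM) family, *Slamf1*, *Slamf6*, *Cd84* and *Ly9*. They were chosen by name, and all 5 were found among the 13798 genes of the expression matrix. Their RNA was followed in 28192 single follicular T cells across the 6 clusters named by the authors, across both conditions and in each mouse. All recipients were irradiated mice on the C57BL/6 background that had been rebuilt with congenic bone marrow. The 5 WT chimeras received wild type marrow and were immunized with NP-OVA in alum at week 6, and served as non-autoimmune controls with germinal centers against a foreign antigen. The 5 mixed 564Igi chimeras received wild type marrow mixed with marrow of 564Igi mice, whose B cells carry knocked-in heavy and light chains of an autoreactive receptor, and the labels give them no immunization. The labels give week 10 for the analysis of both conditions and record 2 female and 3 male WT chimeras (mice 11, 12, 14, 23 and 36) and 3 female and 2 male 564Igi chimeras (mice 13, 17, 21, 24 and 34). The sort took CD3+CD4+ splenocytes that were CXCR5+PD-1+ and CD45.2+CD45.1-, and which donor the sorted T cells came from is not given in the sources used here. The study's methods also describe a booster immunization of WT chimeras. The conditions differed both in marrow and in immunization, and these cannot be told apart.

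SLAM family receptors are immunoglobulin-type receptors of blood cells, most of which bind the same receptor on a neighboring cell. Their cytoplasmic tails carry immunoreceptor tyrosine-based switch motifs (ITSMs), and once the tyrosine is phosphorylated the motif is bound either by SAP, a small SH2 domain adaptor that brings in the kinase FYN, or by phosphatases. In follicular helper T (TFH) cells, SAP is known for stable contact with B cells and for germinal center help, and SLAMF1 together with SAP is known for IL-4 production.

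The motif that links the receptors to SAP is shown first, because it is what the 4 receptors share beside their position. ITSM codons (threonine, any codon, tyrosine, any pair of codons, then valine or isoleucine) were searched on the coding strand in the last 80 codons of the longest coding transcript of each gene (GENCODE, GRCm38), and the sites found do not overlap. Each line gives 18 bases, 5′ to 3′, with the tyrosine codon in capitals.
Slamf1 site 1: actattTATgcccaagta
Slamf1 site 2: acagttTATgccagtgtg
Slamf6 site 1: actgtgTATgcacaagtc
Slamf6 site 2: acaattTACtccatagtt
Cd84 site 1: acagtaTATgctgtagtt
Cd84 site 2: accattTATtcctcagtg
Ly9 site 1: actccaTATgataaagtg
Ly9 site 2: acaatcTACtgctctgtg

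All 4 receptors held 2 sites each, 8 in all. Of 21276 protein-coding genes searched the same way, 1.14% held at least 1 match and 0.0282%, which is 6 genes, held 2 or more. A match is a string of letters in the reading frame and was not tested as a binding site. The *Slamf1* sites lie on the plus strand at chr1:171792339-171792356 in exon 5 of 7 and at chr1:171799588-171799605 in exon 7. The *Slamf6* sites lie on the plus strand at chr1:171939437-171939454 in exon 6 of 9 and at chr1:171941664-171941681 in exon 7. The *Cd84* sites lie on the plus strand at chr1:171884605-171884622 in exon 5 of 7 and at chr1:171885601-171885618 in exon 6. The *Ly9* sites lie on the minus strand at chr1:171593912-171593929 in exon 8 of 10 and at chr1:171593438-171593455 in exon 9. The 4 receptor genes are neighbors within 365 kb of chromosome 1, from *Ly9* (chr1:171588624-171607410, minus strand) through *Slamf1* (chr1:171767127-171801184) and *Cd84* (chr1:171839697-171890718) to *Slamf6* (chr1:171917515-171953170), all of these plus strand. *Sh2d1a* lies apart from them, at chrX:42502453-42529330 on the plus strand.

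Each mouse gave a library of 1121 to 4030 cells, with a median of 2728 to 4375.5 raw UMIs per cell, and this median did not differ between conditions beyond its spread (exact permutation over the 10 mice, two-sided p = 0.857). The sort markers were present, from *Cd3e* in 99.4% of cells to *Cxcr5* in 40.7%, averaged over mice. The cluster names were checked against their markers. *Foxp3* was found in 56.0% of follicular regulatory T (TFR) cells and 7.20% of activated TFH cells, *Gzmk* in 83.1% of effector cells and *Ifit1* in 89.4% of interferon stimulated cells. Of 12 B cell markers, 9 were in the matrix and 3 were found in at least 1% of cells, led by *Cd22* in 4.37%. The summed level of the B cell markers was 0.125 to 0.164 in WT and 0.100 to 0.173 in 564Igi chimeras (exact permutation p = 0.706). In all, 988 cells carried barcode letters that also occurred in another library.

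Most follicular T cells carried RNA of the receptors together with SAP. Averaged over 10 mice, 83.4% ± 3.41 (SD) of cells had at least 1 UMI of any of the 4 receptors, 55.3% ± 5.63 had a receptor and *Sh2d1a*, and 5.99% ± 1.71 had none of the 5 genes. *Sh2d1a* was found in 54.6% to 71.9% of a mouse's cells, *Slamf6* in 48.0% to 62.1%, *Cd84* in 38.8% to 54.7%, *Ly9* in 21.9% to 31.1% and *Slamf1* in 12.2% to 23.1%. A cell without a UMI may still express the gene, and RNA free in the droplets was not removed, so these are shares of cells with a UMI. Central memory cells had the highest share with a receptor and SAP, 72.3% ± 7.31 over 8 mice, and activated TFH cells the lowest, 52.5% ± 7.51 over 10 mice.

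Levels below are each mouse's mean over cells of log2(UMI count + 1), where the count had been corrected for depth by sctransform, and a mouse entered a cluster with at least 20 cells. The clusters came from the expression of the same cells, so their order is a description and was not tested. *Sh2d1a* was highest in effector cells (1.38 ± 0.21, SD, n = 10 mice), then in TFR cells (1.31 ± 0.09, n = 10) and central memory cells (1.27 ± 0.19, n = 8). It was lower in interferon stimulated (1.09 ± 0.19, n = 8), *Sostdc1* (1.02 ± 0.19, n = 10) and activated TFH cells (0.98 ± 0.17, n = 10). No neighbors in this order differed by more than the SD of their difference within mice. The ends of the order did, with activated minus effector cells at -0.41 ± 0.25 (SD), below 0 in 10 of 10 mice. *Sh2d1a* was also higher in TFR than in activated TFH cells in 10 of 10 mice, by 0.33 ± 0.14 (SD).

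*Slamf6*, the receptor also known as Ly108, had a different order, with TFR cells lowest. Its level was 1.24 ± 0.09 in central memory cells (n = 8), 1.02 ± 0.09 in activated (n = 10), 1.01 ± 0.12 in *Sostdc1* (n = 10) and 0.96 ± 0.19 in interferon stimulated cells (n = 8). It was 0.60 ± 0.18 in effector and 0.55 ± 0.05 in TFR cells (n = 10 each). The steps from central memory to activated cells (7 of 8 mice) and from interferon stimulated to effector cells (6 of 8 mice) exceeded the SD of the difference. TFR cells were below activated TFH cells in 10 of 10 mice, by 0.47 ± 0.05 (SD). In all 10 mice, then, TFR cells had more *Sh2d1a* and less *Slamf6* RNA than activated TFH cells.

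*Slamf1*, which encodes the receptor SLAM (CD150), was highest in TFR cells (0.24 ± 0.05, n = 10). Its level was 0.22 ± 0.08 in interferon stimulated cells (n = 8) and 0.17 ± 0.03 in activated TFH cells (n = 10). It was 0.10 in central memory (n = 8), 0.098 in effector and 0.095 in *Sostdc1* cells (n = 10 each), and only the step from activated to central memory cells (8 of 8 mice) exceeded the SD of the difference. *Cd84*, a receptor known for adhesion of T to B cells, ranged only from 0.50 ± 0.07 in TFR to 0.63 ± 0.11 in *Sostdc1* cells. *Ly9*, the receptor also called CD229, ranged from 0.26 ± 0.08 in interferon stimulated to 0.37 ± 0.09 in effector cells. For neither *Cd84* nor *Ly9* did any step between neighbors in the order exceed the SD of its difference. Clusters further apart did differ by more. *Cd84* was higher in activated TFH than in TFR cells in 10 of 10 mice, by 0.10 ± 0.04 (SD). For *Ly9*, *Sostdc1* minus effector cells was -0.11 ± 0.08 (SD), below 0 in 10 of 10 mice.

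**Figure D1:**
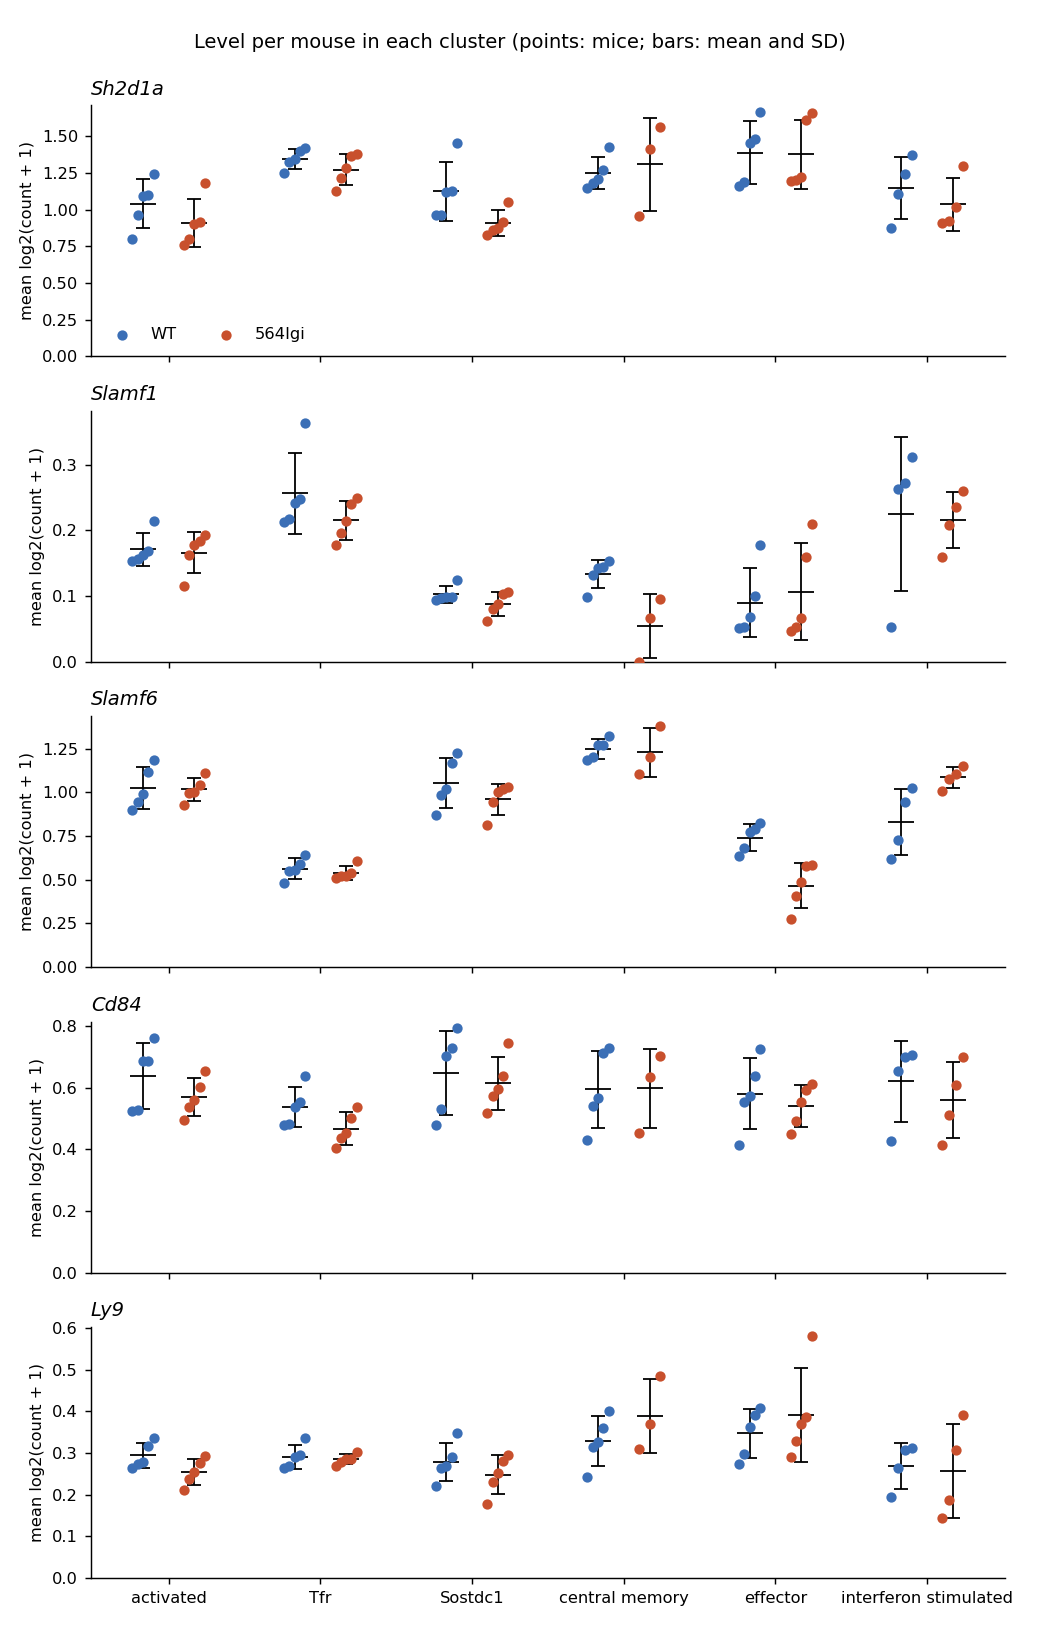
Level of each gene (y axis, mean log2(UMI count + 1) over a mouse's cells) in the 6 clusters (x axis), with WT chimeras in blue and 564Igi chimeras in red, points for mice and bars for the mean and SD. *Slamf6* sits near 0.55 in TFR cells of both conditions and near 1.02 in activated cells, and in effector cells all 5 red points lie below all 5 blue points.

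To place each gene, its pattern was compared with that of 7093 genes found in at least 5% of cells, over 56 mouse-by-cluster levels centered within each mouse. These points share mice, libraries and clusters, and the correlations are a description. The genes most like *Slamf6* were *Tcf7*, a transcription factor of memory and TFH cells (Pearson r = 0.89), *Nsg2* (0.84) and *Prkcq*, a kinase of T cell receptor signaling (0.83). Those most like *Sh2d1a* were *Btg1* (0.75), *Zbtb38* (0.74) and *Prdm1*, which encodes Blimp-1 (0.69). *Slamf1* was most like *Il2rg*, the common cytokine receptor chain (0.76), *Tmem154* (0.75) and *Trpm4* (0.73), and *Ly9* was most like *Lat*, an adaptor of T cell receptor signaling (0.75), *Il10ra* (0.73) and *Baiap2* (0.72). The closest genes to *Cd84* were weaker matches, *Tma7* (0.51), *Ctse* (0.49) and *Ntrk3* (0.49). Among the 5 genes themselves, *Sh2d1a* varied with *Ly9* (0.57) and against *Slamf6* (-0.53), and *Slamf6* with *Cd84* (0.37).

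The study asked how autoimmune differ from non-autoimmune follicular T cells, and over all cells the 5 genes gave no called difference. The *Sh2d1a* level was 1.05, 1.31, 1.22, 1.14 and 1.22 in WT mice 11, 12, 14, 23 and 36, and 1.03, 1.22, 1.11, 0.92 and 1.09 in 564Igi mice 13, 17, 21, 24 and 34. The groups overlapped, with 564Igi mouse 24 lowest and WT mouse 12 highest. The difference, 564Igi minus WT, was -0.11 (95% confidence interval -0.25 to 0.02, limma adjusted p = 1.0, exact permutation p = 0.127). *Cd84* differed by -0.061, *Slamf1* by -0.025, *Ly9* by -0.022 and *Slamf6* by -0.016, and the groups overlapped for each. All 5 were lower in 564Igi chimeras, as were 61.6% of the 9959 genes tested. limma called 0 of 5 members at an adjusted p below 0.01 and an absolute log2 difference above 0.2, against 0.01% of all genes, and 0 of 5 had an unadjusted p below 0.05, against 3.19% of all genes.

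Within the clusters, none of the 5 genes was called either. In activated TFH cells limma called 0 of 5 (0.0101% of all genes), and 0 had an unadjusted p below 0.05 (3.99% of all genes). In TFR cells it called 0 (background 0.02%), and 1 of 5 had an unadjusted p below 0.05 (3.5%), *Cd84*, with a difference of -0.072. In *Sostdc1* cells it called 0 (0.0202%), and 1 of 5 passed the unadjusted limit (4.6%). That gene was *Sh2d1a*, at 0.96 to 1.46 in WT and 0.83 to 1.05 in 564Igi chimeras, overlapping groups that differed by -0.22 (limma adjusted p = 0.925, exact permutation p = 0.0397). In central memory cells, with 5 WT and 3 564Igi mice, it called 0 (0%), and 1 of 5 passed the unadjusted limit (7.57%). That gene was *Slamf1*, at 0.098 to 0.154 in WT and 0 to 0.095 in 564Igi mice, where mouse 24 had no *Slamf1* UMI in 29 cells, and the groups did not overlap, as for 4.77% of all genes tested (difference -0.080, limma adjusted p = 0.616, exact permutation p = 0.0179).

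Of all 35 comparisons of a gene between conditions, the widest gap was that of *Slamf6* in effector cells. Its level was 0.79, 0.64, 0.82, 0.77 and 0.68 in WT mice 11, 12, 14, 23 and 36, over 23 to 77 cells each. It was 0.49, 0.58, 0.27, 0.41 and 0.59 in 564Igi mice 13, 17, 21, 24 and 34, over 35 to 173 cells each. The groups did not overlap, as for 0.882% of all genes tested, and the lowest mouse, 21, had the most effector cells. *Slamf6* was found in 51.1% of effector cells in WT and 33.1% in 564Igi chimeras. The level differed by -0.28 (95% confidence interval -0.41 to -0.14), which did not pass the test across all genes (limma adjusted p = 0.107), while the exact permutation p was 0.00794, the smallest that 5 against 5 mice allow. Adjusted over the 35 comparisons of the 5 genes between conditions, in all cells and in the 6 clusters that make them up, that p was 0.278. limma called 0 of 5 members in effector cells (0.0104% of all genes), and 1 of 5 had an unadjusted p below 0.05 (5.22%). Without any 1 mouse the difference stayed between -0.30 and -0.23, with an adjusted p of 0.0482 to 0.760.

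In interferon stimulated cells the same receptor differed the other way. *Slamf6* was at 0.94, 0.73, 1.03 and 0.62 in WT mice 11, 14, 23 and 36 and at 1.15, 1.01, 1.08 and 1.11 in 564Igi mice 13, 17, 21 and 34. WT mouse 23 lay above 564Igi mouse 17, so the groups overlapped, and the difference was 0.26 (limma adjusted p = 0.998, exact permutation p = 0.0571). limma called 0 of 5 members there (0.0106% of all genes), and 1 of 5 had an unadjusted p below 0.05 (4.2%). The contrast between both clusters was added after the data had been seen. Its p values are therefore not independent of the opposite differences just given. It was tested in the 8 mice that had both. Effector minus interferon stimulated *Slamf6* averaged -0.061 in WT and -0.60 in 564Igi mice, without overlap (2.85% of all genes tested), a difference of -0.54 (exact permutation p = 0.0286, the smallest that 4 against 4 mice allow). limma called 0 of 5 members in this contrast (0% of genes called, 1 of 5 members with an unadjusted p below 0.05 against 5.91% of all genes), and for *Slamf6* the adjusted p was 0.610. Between TFR and activated cells, the conditions' differences gave 0 called members (0% of genes called), and 1 of 5 had an unadjusted p below 0.05 (7.36% of all genes), *Ly9*, with 0.030 in 564Igi and -0.0035 in WT mice.

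sctransform had been run on each condition on its own, so the counts of the conditions were corrected by separate fits. What this did to differences between conditions, such as a shift shared by all genes, was not tested.

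**Figure D2:**
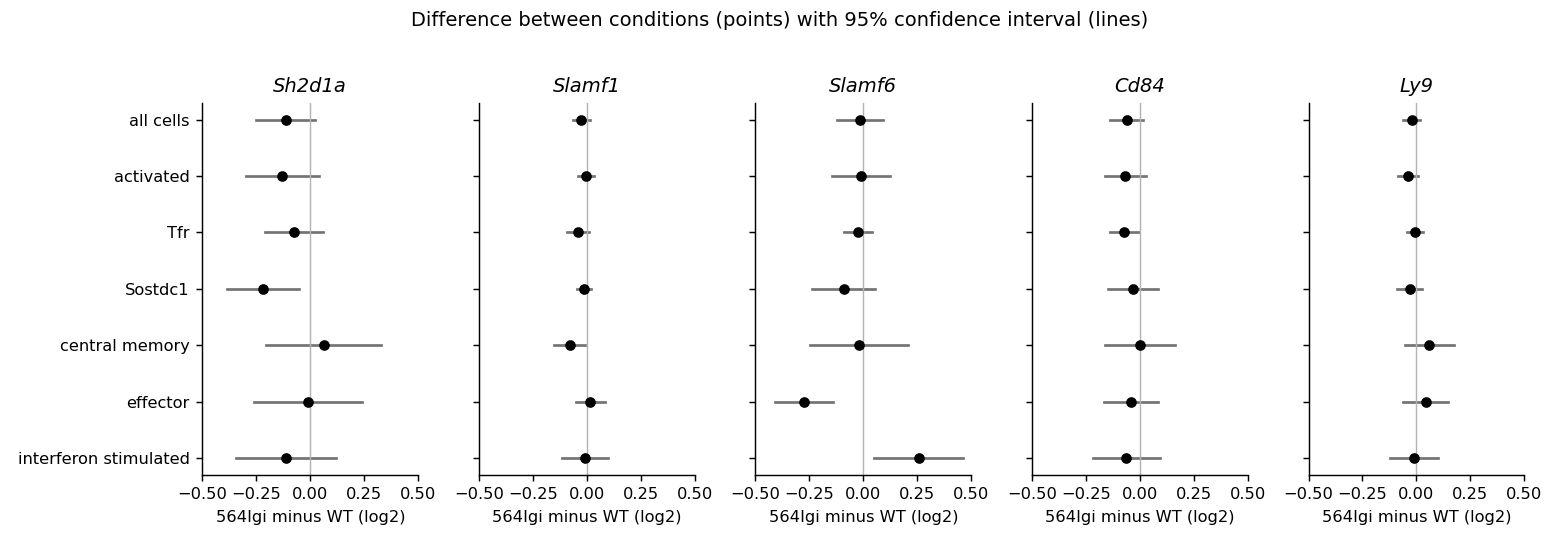
Difference between conditions for each gene (x axis, 564Igi minus WT, log2), in all cells and in each cluster (rows), with points for the estimate and lines for its 95% confidence interval. Most intervals cross 0, and *Slamf6* lies at -0.28 in effector and 0.26 in interferon stimulated cells.

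SAP is known for IL-4 of TFH cells, so the 5 genes were compared between cells with and without an *Il4* UMI. Among activated TFH cells, 1574 had *Il4* and 10379 had none. *Sh2d1a* was higher in the cells with *Il4* in 10 of 10 mice. In WT mice 11, 12, 14, 23 and 36 its level was 1.13, 1.52, 1.40, 1.22 and 1.32 with *Il4*, against 0.77, 1.18, 1.07, 0.93 and 1.05 without. In 564Igi mice 13, 17, 21, 24 and 34 it was 1.07, 1.67, 1.13, 1.38 and 1.02 with *Il4*, against 0.77, 1.06, 0.88, 0.72 and 0.89 without. The rise was smallest in mouse 34 and largest in mouse 24, which had 32 cells with *Il4*. The mean difference was 0.35 (95% confidence interval 0.23 to 0.47, limma adjusted p = 0.00376), and the exact sign-flip permutation p was 0.00195, the smallest that 10 mice allow. *Sh2d1a* was found in 69.8% of cells with *Il4* and 58.2% without.

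*Sh2d1a* was the 1 of 5 members called, where 0.527% of all genes were called. The receptors gave no call. *Slamf1*, the receptor known for IL-4, had -0.037, lower with *Il4* in 9 of 10 mice (limma adjusted p = 0.167, exact sign-flip permutation p = 0.00781). *Slamf6* had -0.075, *Cd84* -0.024 and *Ly9* 0.020. Raw UMIs per cell were 1.05 times as many in the cells with *Il4*, higher in 6 of 10 mice (exact sign-flip permutation p = 0.227), and the summed B cell markers were higher in 7 of 10 (p = 0.0977 by the same exact test). Within the middle 2 quartiles of raw UMIs *Sh2d1a* was still called, at 0.33 (limma adjusted p = 0.00708). Mouse 24, with the largest rise, had 14 cells with *Il4* there and did not enter that fit. The call sat near its limit. Left out in turn, WT mice 11, 12, 23 and 36 and 564Igi mouse 13 each took the limma adjusted p above 0.01, to 0.0122, 0.0105, 0.0137, 0.0110 and 0.0105, with a difference of 0.35 to 0.36.

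The mean level of *Sh2d1a* was also higher in each class of activated cells with more *Il4* UMIs, although not every mouse entered every class. It was 0.93 ± 0.15 (SD, n = 10 mice) with no *Il4* UMI and 1.22 ± 0.23 with 1 (n = 10). It was 1.36 ± 0.20 with 2 to 3 (n = 9) and 1.61 ± 0.25 with 4 or more (n = 5), counting mice with at least 10 such cells. In each of the 5 mice that had all of these classes, the class with 4 or more was the highest, while mouse 17 was slightly lower with 2 to 3 (1.63) than with 1 (1.66). *Slamf6* had no such order, at 1.03, 0.96, 0.98 and 0.97 over the same classes.

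In TFR cells and in *Sostdc1* cells the comparison was added after the result in activated cells had been seen. *Sh2d1a* was higher in TFR cells with *Il4* in 10 of 10 mice, at 1.45 to 1.87 against 1.08 to 1.40, a difference of 0.42 (limma adjusted p = 0.000787, called). *Slamf6* was also higher in 10 of 10 mice, by 0.18 (limma adjusted p = 0.00290), under the limit on the size of the change. 1 of 5 members was called, against 0.811% of all genes. In these TFR cells raw UMIs per cell were 1.16 times as many with *Il4* and the summed B cell markers were higher, each in 10 of 10 mice (exact sign-flip permutation p = 0.00195 for both). B cell markers summed to 0.183 to 0.488 with *Il4* and 0.156 to 0.236 without, and their part in the result was not tested. Within the middle quartiles of raw UMIs, in 4 mice of each condition, *Sh2d1a* had 0.34 (limma adjusted p = 0.0177) and *Slamf6* 0.12 (limma adjusted p = 0.213), and neither was called. In *Sostdc1* cells *Sh2d1a* was higher in 8 of 9 mice, lower only in mouse 13, by 0.28 on average (limma adjusted p = 0.263, exact sign-flip permutation p = 0.00781), and 0 of 5 members were called (0% of genes called, 1 of 5 members with an unadjusted p below 0.05 against 9.15% of all genes).

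**Figure D3:**
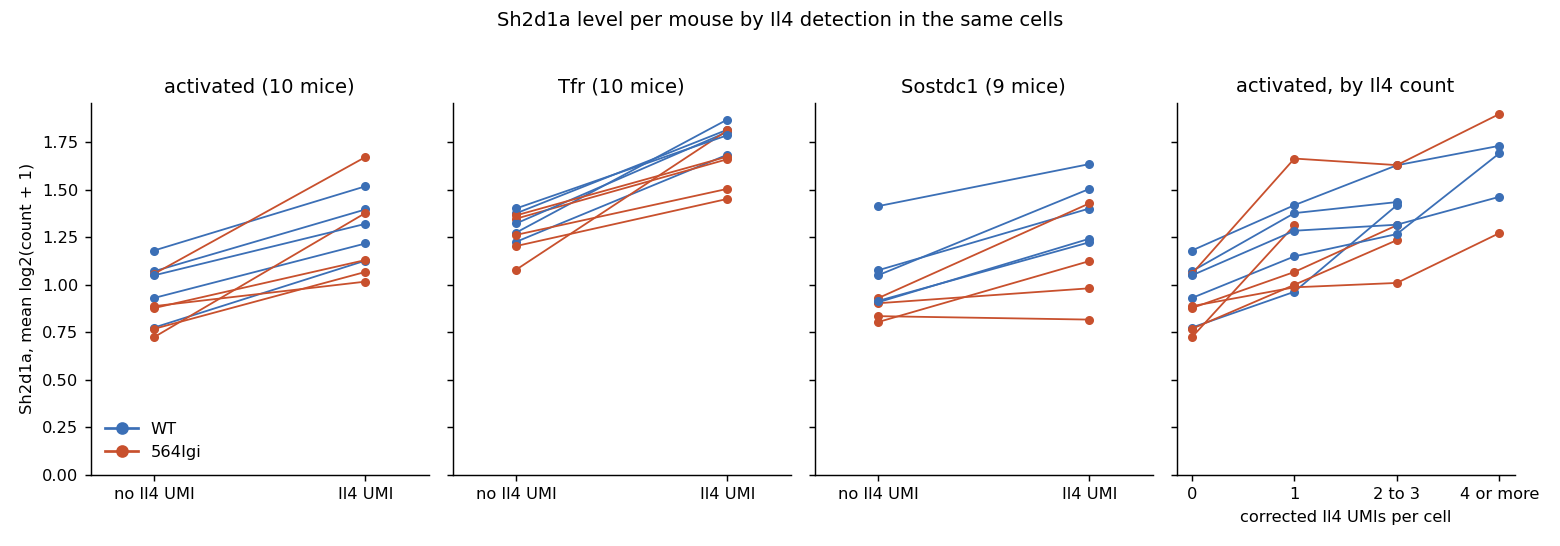
*Sh2d1a* level per mouse (y axis, mean log2(UMI count + 1)) in cells without and with an *Il4* UMI, in activated, TFR and *Sostdc1* cells, and in activated cells by the number of *Il4* UMIs per cell, with a line for each mouse, WT in blue and 564Igi in red. Lines rise in all 10 mice in activated and TFR cells and in 8 of 9 in *Sostdc1* cells.

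IL-21, the other cytokine TFH cells are known for, went with a different pattern. Among activated cells, 2592 had *Il21* and 9361 had none. *Sh2d1a* had -0.12 with *Il21* and was lower in 8 of 10 mice (limma adjusted p = 0.00878, exact sign-flip permutation p = 0.00781). *Slamf6* had -0.090 and was lower in 9 of 10 (limma adjusted p = 0.00105, exact sign-flip permutation p = 0.00391). Both were under the limit of 0.2 on the size of the change, so 0 of 5 members were called, against 0.446% of all genes, and 2 of 5 had an unadjusted p below 0.05, against 38% of all genes. Within the middle 2 quartiles of raw UMIs *Sh2d1a* had -0.099 (limma adjusted p = 0.412) and *Slamf6* -0.15 (limma adjusted p = 0.0102). With at least 2 *Il21* UMIs *Sh2d1a* had -0.20 (limma adjusted p = 0.0314). Only without WT mouse 11 or 12 did the limma adjusted p of *Sh2d1a* stay below 0.01, and without each other mouse it was 0.0150 to 0.0211. Cells with *Il21* had 1.14 times as many raw UMIs, in 10 of 10 mice (exact sign-flip permutation p = 0.00195), and 21.5% of all genes tested were lower in them. *Slamf1* had 0.014, *Cd84* 0.025 and *Ly9* 0.0093.

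Cells with one cytokine and not the other set these apart, in a comparison also added later. *Sh2d1a* was at 1.32 ± 0.21 (SD, n = 10 mice) in the 1205 activated cells with *Il4* only and 0.83 ± 0.17 in the 2223 with *Il21* only. It was 1.20 ± 0.24 in the 369 with both and 0.96 ± 0.15 in the 8156 with neither. *Il4*-only exceeded *Il21*-only cells in 10 of 10 mice, by 0.48 (95% confidence interval -0.02 to 0.99, limma adjusted p = 0.256, exact sign-flip permutation p = 0.00195). The SD of this difference over the 10 mice was 0.203, while the limma SE was 0.232. In this fit the trend of the variance was taken over each gene's mean difference. The limma fit without the trend gave the same difference an adjusted p of 0.000524, and with the trend over the gene's mean level 3.16e-08, both past the threshold. *Slamf1* was lower in *Il4*-only cells in 9 of 10 mice, with a mean difference of -0.055 (limma adjusted p = 0.0527). limma called 0 of 5 members, against 0.923% of all genes, and 1 of 5 had an unadjusted p below 0.05, against 21.8% of all genes.

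Neither cytokine difference was called between conditions. The rise of *Sh2d1a* with *Il4* averaged 0.31 in WT and 0.39 in 564Igi mice, a difference of 0.075 with overlapping groups (95% confidence interval -0.18 to 0.33, limma adjusted p = 0.989), and 0 of 5 members were called (0% of genes, 0 of 5 with an unadjusted p below 0.05 against 4.13% of all genes). The fall with *Il21* averaged -0.078 in WT and -0.17 in 564Igi mice, also overlapping, and 0 of 5 members were called (0% of genes, 1 of 5 members, *Cd84*, with an unadjusted p below 0.05 against 5.45% of all genes). *Il4* was found in 13.03% ± 4.87 of activated cells in WT and 12.1% ± 5.34 in 564Igi chimeras (SD, n = 5 each, exact permutation p = 0.786). *Il21* was found in 18.6% ± 4.36 and 24.8% ± 3.55 (exact permutation p = 0.0476).

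T cell receptor sequences gave another grouping of the same cells. In all, 21405 of the 28192 cells had a paired receptor, and cells with the same CDR3α and CDR3β were taken as a clone. Cells of expanded clones, with at least 5 cells, were compared with cells of clones seen once. In activated TFH cells *Slamf6* was lower in expanded clones in 9 of 10 mice, the exception being WT mouse 11 at 0.14, and differed by -0.085 on average (limma adjusted p = 0.0919, exact sign-flip permutation p = 0.0273). *Slamf1* was lower in 8 of 10 mice and differed by -0.038 (limma adjusted p = 0.0875, exact sign-flip permutation p = 0.0156). *Sh2d1a* had -0.0017, *Cd84* -0.0053 and *Ly9* -0.013. limma called 0 of 5 members and 0% of all genes, and 2 of 5 members had an unadjusted p below 0.05, against 23.1% of all genes.

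In TFR cells, *Sh2d1a* was higher in expanded clones in 7 of 10 mice, by 0.11 (limma adjusted p = 0.108, exact sign-flip permutation p = 0.0156). *Slamf6* had -0.090 (limma adjusted p = 0.141) and *Slamf1* -0.049 (limma adjusted p = 0.106), each lower in 8 of 10 mice. limma called 0 of 5 members and 0% of all genes, and 3 of 5 had an unadjusted p below 0.05, against 18.4% of all genes. With each clone weighted equally, *Sh2d1a* turned to -0.032 and *Slamf6* to 0.048 in TFR cells. Expanded cells had 0.897 times the raw UMIs of single cells in the activated cluster and 0.940 times in the TFR cluster, lower in 8 and 9 of 10 mice. Expanded activated cells were lower in B cell markers in 10 of 10 mice and higher in myeloid cell markers in 9 of 10. They were higher in CD8 T and NK cell markers in only 2 of 10. Expanded TFR cells were lower in CD8 T and NK cell markers in 9 of 10 and higher in myeloid cell markers in 7 of 10. Of the 7 myeloid markers in the matrix, only 1 was found in at least 1% of cells. It was *Cst3*, in 45.3% of these sorted T cells, so the myeloid sum rests mainly on that gene. The part of depth and of these markers in the result was not tested.

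Between conditions, the clone difference of *Slamf6* in activated cells averaged -0.15 in 564Igi and -0.023 in WT mice, with overlapping groups (difference -0.12, limma adjusted p = 0.674, exact permutation p = 0.0238). limma called 0 of 5 members there (0% of genes) and 0 of 5 for TFR cells (0% of genes), and 1 and 0 of 5 had an unadjusted p below 0.05, against 7.03% and 6.89% of all genes. Together with the contrasts between clusters and between cytokine classes, 30 such differences were compared between conditions, 3 had an exact permutation p below 0.05, and the smallest after adjustment over the 30 was 0.397. The 30 included the effector against interferon stimulated contrast, which was added after the data had been seen.

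**Figure D4:**
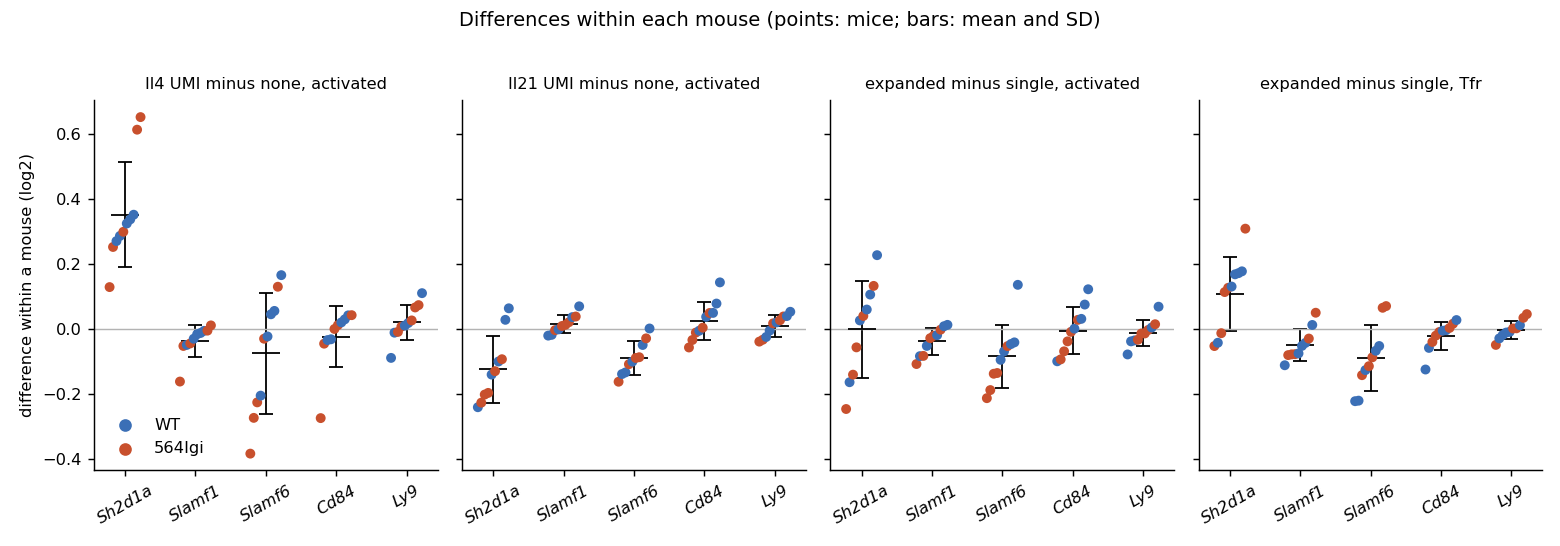
Difference within each mouse (y axis, log2) for the 5 genes, between activated cells with and without *Il4* or *Il21* and between cells of expanded and single-cell clones in the activated and TFR clusters, with points for mice (WT blue, 564Igi red) and bars for the mean and SD. *Sh2d1a* is above 0 with *Il4* in all 10 mice, from 0.13 to 0.65, and *Slamf6* is below 0 with *Il21* in 9 of 10.

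The rest of the pathway was read from lists chosen by function. Among 16 kinases and partners of SAP and SLAM signaling, 16 were tested and limma called 0 between conditions over all cells (0 with an unadjusted p below 0.05). *Fyn* and *Lck*, kinases of this list, were not called in activated cells with *Il4* either. Of 10 tested genes of the follicular program, none was lower in activated cells with *Il4* (0%, against 37.2% of all genes tested). limma called 3 of the 10 as higher, against 0.527% of all genes. They were *Cxcr5*, the receptor that leads to the follicle (0.28), *Cd40lg*, the ligand that helps B cells (0.27), and *Tox2* (0.20). *Tox2* encodes a transcription factor of TFH cells. In TFR cells with *Il4*, the phosphatase gene *Ptpn11* (0.26), *Pdcd1* (0.70), *Cd40lg* (0.43), *Cxcr5* (0.36) and *Tox2* (0.30) were called. With *Il21*, *Ptpn11* (0.36), *Maf* (0.35), *Icos* (0.29) and *Pdcd1* (0.29) were called in activated cells. In *Il4*-only against *Il21*-only cells, *Cxcr5* (0.22) was called as higher and *Maf* (-0.20) as lower. The medians of the lists and of all genes in the *Il4* comparison in activated cells were 0.017 for kinases and partners, 0.14 for the follicular program, -0.024 for the 5 members and 0.0039 for all genes.

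Of the other SLAM family genes, *Slamf7*, a gene used by the authors to mark central memory cells, was found in 52.2% of central memory and 42.3% of effector cells and in 1.22% to 3.45% of the cells of the other clusters, averaged over mice. *Cd48*, a ligand within the family, was found in 49.0% of all cells and was highest in effector cells (0.89 ± 0.07, n = 10). *Cd244a*, *Slamf8* and *Slamf9* were found in 0.141%, 0.119% and 0.020% of cells on average. None of the genes of this list was called in any comparison, of 1 to 3 tested. Of 4 listed adaptor genes with an SH2 domain, *Sh2d1b1* and *Sh2d1b2* were not in the matrix. The 2 tested ones, *Sh2d2a* and *Sh2d3c*, were not called in any comparison.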

How the data were processed

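Cell Ranger 4.0.0 had aligned the 5′ gene expression reads to GRCm38 (mm10), and Seurat 3.1.4 had been used for filters, clusters and scores, as the submitters' processing notes list. The expression matrix deposited by the authors holds sctransform-corrected UMI counts as natural log values (1 added to each count), with sctransform run per condition. The authors' cell table holds raw UMI and gene counts per cell, the percent of UMIs from mitochondrial genes, a heat shock score and the cluster names. The deposited receptor table gives paired CDR3 sequences for 33833 cells, each of which was taken to hold 1 alpha and 1 beta sequence. The study's methods name no step that removed doublets, and no doublet caller was run here.

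Undoing the log gave whole corrected counts (100% within 1e-06). They are not raw counts, so each mouse's mean of log2(corrected count + 1) was used, over classes of 20 or more cells. limma 3.58.1 with its trend option (R 4.3.3) was fitted to mouse means between conditions, or to differences within mice. For differences the trend covariate is the gene's mean difference, not its level. A gene had to be found in 1% of cells or more in a number of mice equal to the smaller group. Calls needed a Benjamini-Hochberg adjusted p under 0.01 with an absolute log2 difference over 0.2. A mouse is 1 replicate. Single values were compared by exact permutation of the mice or exact sign flips (two-sided). The fits were checked on simulated data. Python 3.11.15 with numpy 2.4.6, pandas 2.3.3, scipy 1.17.1 and matplotlib 3.10.9 did the rest. Alternatives covered the limma trend, gene filter, order of log and mean, share of cells, labelled sex, thresholds, cell minimums, depth, clone definitions and each mouse left out. Total depth was 3424280 to 15241983 UMIs per mouse, and shares of cells with a UMI carry counting error and depend on depth.

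The 5 genes were named throughout. The lists of other SLAM family genes, adaptors, kinases, phosphatases, follicular program genes and cell type markers were named by count, plus any gene called and at most 4 examples per list. Some results for single genes of these lists are not reported here. The 5 genes and the lists were chosen with earlier results of these data known. No column of sample values was left unused.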

Additional observations from a re-analysis of the deposited data

Results flagged for a closer look

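Of 100 groups of mice examined, 8 held a mouse far from the others, and chance flags about 1 group in 20. WT mouse 11 stood apart for *Slamf1* in 3 clusters. Its level was 0.215 in activated cells (the other WT mice 0.153 to 0.169), 0.364 in TFR cells (0.213 to 0.247) and 0.125 in *Sostdc1* cells (0.0939 to 0.0991). The same mouse was the one with more *Slamf6* in expanded than in single activated clones, at 0.136 against -0.213 to -0.0414 in the other 9 mice. Among 564Igi mice, mouse 17 had the highest *Slamf6* in TFR cells, 0.608 against 0.512 to 0.538 in the other 564Igi mice. 564Igi mouse 24, the library with the fewest cells, was low in 3 differences that rest on 32 or fewer cells with *Il4*. With *Il4* against without, *Slamf1* had -0.162 there (others -0.0525 to 0.0109) and *Cd84* -0.275 (others -0.0454 to 0.0424). In *Il4*-only against *Il21*-only cells *Cd84* had -0.275 (others -0.0887 to 0.0512).

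In 3 cases the difference between conditions itself differed between classes of cells. *Ly9* in TFR minus activated cells differed by 0.0333 between conditions (-0.00352 in WT and 0.0298 in 564Igi mice, exact permutation p = 0.0397). *Slamf6* in effector minus interferon stimulated cells, a contrast added after the data had been seen, differed by -0.543 (-0.0614 in WT and -0.605 in 564Igi mice, exact permutation p = 0.0286). *Slamf6* in expanded minus single activated clones differed by -0.122 (-0.0233 in WT and -0.146 in 564Igi mice, exact permutation p = 0.0238). None passed adjustment over the 30 differences compared, where the smallest adjusted p was 0.397, and limma called none of the 3.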

How the results depend on the processing

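Between conditions, limma called 0 of 5 members in all cells and in each cluster under each alternative run. With *Il4* in activated cells, the members called went from 1 to 0 without WT mice 11, 12, 23 or 36 or 564Igi mouse 13, and stayed at 1 without each other mouse. In the comparisons added after seeing the data, members called went from 1 to 0 for *Il4* in TFR cells within the middle UMI quartiles, where fewer cells and mice entered, from 0 to 1 for *Il4* in *Sostdc1* cells with the trend taken over the mean level of the gene, and from 0 to 1 for *Il4*-only against *Il21*-only cells both with that trend and without a trend. The cause was not tested.

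Some small differences changed sign. Without 1 mouse, *Slamf6* over all cells ranged from -0.0564 to 0.0129, *Sh2d1a* in activated clones from -0.0271 to 0.0255, *Cd84* in activated clones from -0.0194 to 0.00523, *Ly9* in TFR clones from -0.00760 to 0.00294, and *Cd84* with *Il4* from -0.0315 to 0.00379, above 0 only without mouse 24. With at least 2 *Il4* UMIs *Cd84* was 0.0264, in a fit that mouse 24, with 10 such cells, did not enter. With each clone weighted equally, activated *Sh2d1a* was 0.0291, *Cd84* 0.0133 and *Ly9* 0.00173, and TFR *Sh2d1a* was -0.0318, *Slamf6* 0.0482 and *Cd84* 0.0189. With clones of more than 10 cells, activated *Sh2d1a* was 0.00956 and TFR *Ly9* 0.00809. *Ly9* with *Il21* was -0.00349 within the middle UMI quartiles.

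Counts over all genes moved more. With the trend over the mean level, 22 genes were called for activated and 10 for TFR clones (0 in the main fit), 26 for *Il4* in *Sostdc1* cells (0) and 2 for effector minus interferon stimulated cells (0). With at least 2 UMIs, 32 genes were called for *Il4* (52) and 82 for *Il21* (44). For *Il4* in TFR cells within the UMI quartiles 0 were called (81). Between conditions the counts were 0 to 2 in the main fits and at most 9 under an adjusted p below 0.05 with no limit on size. No alternative limited clones to cells with exactly 1 alpha and 1 beta sequence, as the deposited cells were taken to be of that kind. A minimum of 50 cells left too few central memory and interferon stimulated mice and was not run there. *Slamf1* was found in 12.2% to 23.1% of a mouse's cells, and the effector values rest on 23 to 173 cells per mouse.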
